A study of Mus musculus with 3 samples.

Results

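Esmolol in the hearts of mice given lipopolysaccharide (LPS) was examined through a single contrast, the log ratio of LPS hearts with esmolol over LPS hearts without it. The contrast was taken as deposited, the probes naming 1 gene were kept, and each gene was given the median of its probes. This gave 17733 genes of the 19532 named on the array, and a value above 0 means higher with esmolol. The animals were C57BL/6 mice. In the LPS + esmolol group, LPS was injected intraperitoneally and esmolol was infused continuously at 20 mg/kg/h through a catheter in the right jugular vein. The LPS group received the same injection and no esmolol, and the labels do not state if it carried a catheter. The series also holds an esmolol over control contrast in animals without sepsis and a contrast after cecal ligature and perforation (CLP), in which gut bacteria enter the abdomen. The design describes 6 groups of 8 animals with 30 mg of heart taken from each, and 2 dye swaps for each sepsis model.

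Each contrast is 1 merged value per probe, made from 4 replicates with dye swaps. Whether those replicates were separate animals or pooled RNA is not given in the sources used here. No difference between LPS + esmolol and LPS hearts could therefore be tested, and no spread between replicates can be given. "Higher" and "lower" describe the size of the merged ratio, and "past 1.5-fold" means a ratio of 0.585 or more in size on the log2 scale. The ± values are the SD between probes of the same gene and cover neither animals nor hybridizations. Both the sample title and the design text put the esmolol-treated hearts over the untreated ones, which makes the direction likely without settling it. That the logarithm has base 2 is an assumption. The table holds ratios and no levels, so the heart origin of the RNA could not be checked by the abundance of cardiac transcripts.

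LPS is recognised by Toll-like receptor 4 on macrophages, endothelial cells and cardiomyocytes. The receptor activates NF-kB, which turns on cytokines and chemokines, and interferon regulatory factors, which turn on type I interferon and, through it, a large set of antiviral and GTPase genes. Interferon gamma from lymphocytes adds to that set and is the classical inducer of Cxcl9 and the guanylate-binding proteins. Esmolol is cleared within minutes and blocks mainly beta-1 adrenergic receptors, which in cardiomyocytes signal through cyclic AMP and protein kinase A.

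The gene values were centred on 0 (median 0.0001) with an SD of 0.28, and the middle 50% of genes lay between -0.16 and 0.17. With esmolol, 365 genes were higher and 401 lower by 1.5-fold or more, which is 2.06% and 2.26% of the genes measured. Every list count below is to be read beside these shares, and several lists lie near them. At 2-fold the counts were 32 higher and 75 lower, so the largest ratios were more often below 0. The genes nearest to the threshold show how little separates the classes, with Zmiz1os1 at -0.585 counted as lower and the tryptophan-degrading enzyme gene Ido1 at -0.5846 not. Error within the table can be judged only from genes with more than 1 probe. Over 7394 such genes the pooled SD between probes was 0.24, and 53.5% had all their probes on the same side of 0. Of the 154 multi-probe genes whose median was past 1.5-fold, 67 had every probe past it, 49 lower and 18 higher. Genes with a single probe made up most of the extremes. Of 10339 genes with 1 probe, 2.93% were higher and 2.99% lower, against 0.76% and 0.51% of the 788 genes with 4 or more probes.

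Of the 30 lowest genes, 16 belonged to the interferon or inflammation lists, and of the 30 highest, 1 did. Of the 17733 genes measured, 191 stand in the interferon lists and 368 in the inflammation lists. The lists were chosen with earlier results of these data known, so these counts are a description and no independent support. Capillary endothelial markers supplied 5 of the highest and 0 of the lowest. The lowest value was that of Cxcl10, a chemokine induced by interferon that attracts T cells, at -2.56 or 5.88-fold lower. Cxcl9, a chemokine for the same receptor, followed at -2.13. Calhm6, a calcium homeostasis modulator family gene expressed by activated immune cells, was at -1.99, and Socs1, which inhibits cytokine signalling through the JAK kinases, at -1.62. At the other end stood Neat1, the RNA scaffold of nuclear paraspeckles, at 1.58. Hsd11b1, which regenerates active glucocorticoid, was at 1.39, Slc40a1, the iron exporter ferroportin, at 1.14 and the muscle kelch gene Klhl38 at 1.2496. All of these rest on 1 probe each, as do 26 of the 30 genes at each end. Several extremes have no evident place in the heart, such as the skin gene Lce3f (1.01) and the olfactory receptors Olfr691 (-1.79) and Olfr959 (1.15).

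**Figure D1:**
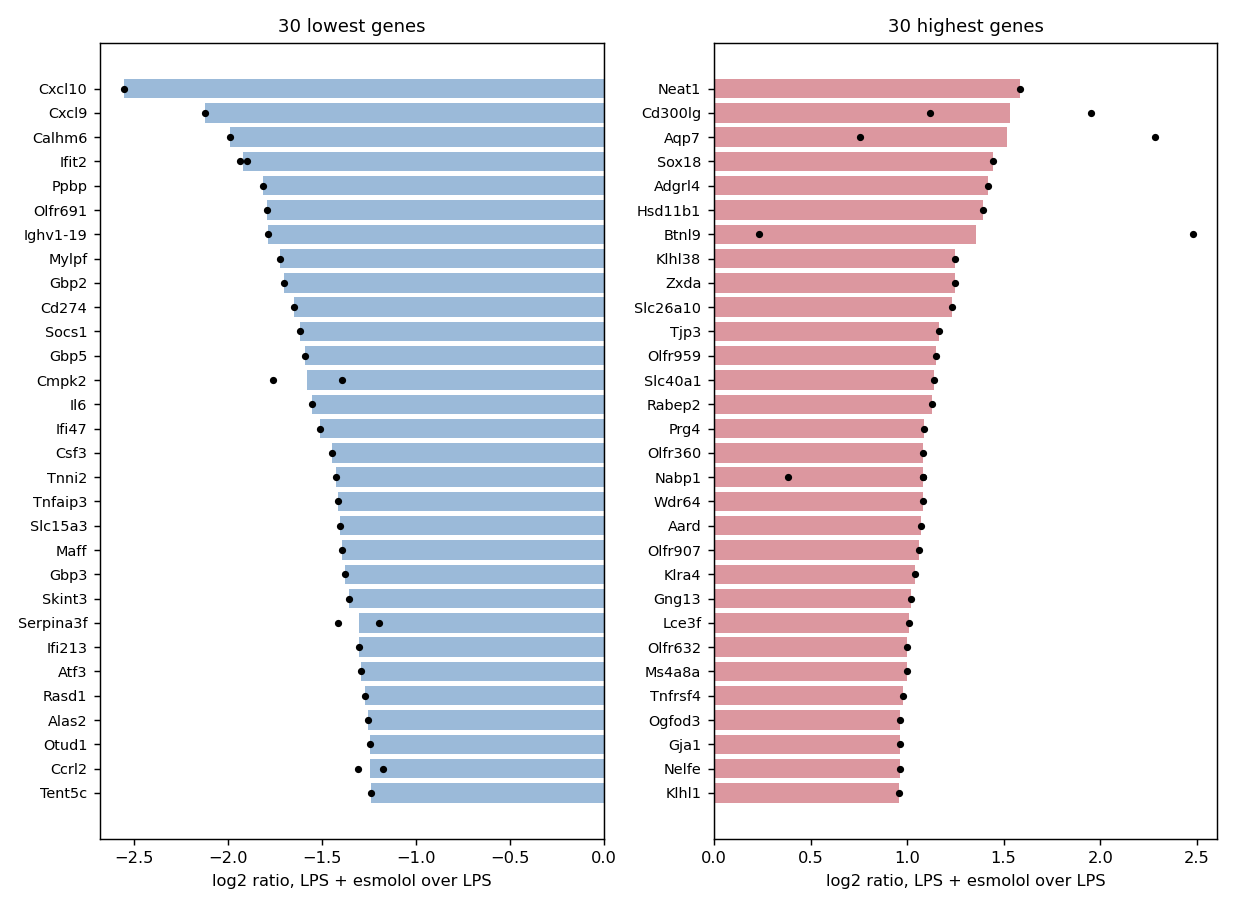
The 30 lowest (left) and 30 highest (right) genes by log2 ratio of LPS + esmolol over LPS hearts, with bars for the gene median and black points for single probes. Points of Ifit2 nearly coincide, while those of Btnl9 (0.23 and 2.48) and Aqp7 (0.76 and 2.28) lie far apart.

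Many interferon-induced genes were lower with esmolol. In the list of guanylate-binding proteins and immunity-related GTPases, which attack the vacuoles of intracellular pathogens, 14 of 19 measured genes were lower by 1.5-fold or more, 0 were higher, and the median was -0.84. In the list of antiviral effectors 29 of 56 were lower, 0 were higher, and the median was -0.61. Among all genes measured, 2.26% were lower by as much and the median was 0.0001. The guanylate-binding proteins Gbp2 (-1.70), Gbp5 (-1.59), Gbp3 (-1.38), Gbp4 (-1.21) and Gbp6 (-1.13) were all more than 2-fold lower, as was the GTPase Ifi47 (-1.51). Gbp8 was at -1.07 ± 0.48 over 2 probes (-0.73 and -1.41). Irgm1, a regulator of the other GTPases, was at -0.42 ± 0.25 over 3 probes, Gbp2b at -0.18 and Irgc1 at 0.10, so not every member shared the size of the leading genes. Guanylate-binding proteins are close relatives, and whether probes for one read another was not tested.

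Several antiviral effectors were measured by more than 1 probe. Ifit2, which binds viral RNA, read -1.90 and -1.94 on its 2 probes, or 3.78-fold lower at the median. The 3 probes of Rsad2, which encodes the antiviral enzyme viperin, read -1.002, -1.06 and -1.09. The 4 probes of Ddx58, which encodes the RNA sensor RIG-I, read -0.67, -0.72, -0.79 and -0.83. Parp14, a mono-ADP-ribosyltransferase, was at -1.15 ± 0.21 over 3 probes, and Herc6, a ligase that attaches Isg15 in mice, at -0.76 ± 0.10 over 3 probes. Of the 22 antiviral genes with more than 1 probe, 19 had every probe below 0, 2 had every probe above 0 and 1 had probes on both sides. In 10 of the 22 every probe was past 1.5-fold. Isg15, the ubiquitin-like interferon product, was at -0.93, Usp18, which removes it from proteins, at -0.64, and Ifit1 at -1.12. The set was not uniform. Oas2, a synthase of the RNase L activator, was at -0.69 ± 0.06, while its relatives Oas1a (0.05) and Oas3 (0.09 ± 0.08) were near 0, as was the nucleic acid sensor Zbp1 (0.07). Ifi27l2a was the highest member at 0.53 ± 0.07. Mx1 had probes at 0.18 and -1.14, so its median of -0.48 describes neither.

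The regulators above these genes had smaller ratios. Of 22 interferon receptors, interferon regulatory factors and STATs, 3 were lower, 0 were higher, and the median was -0.18. Those past 1.5-fold were the transcription factors Irf8 (-0.78 ± 0.08, 2 probes), Irf7 (-0.61) and Irf1, whose 3 probes read -1.78, -0.92 and 0.34. Stat2, a partner in the type I interferon complex, was just short at -0.58. The receptor subunits lay between -0.35 (Ifnar2) and 0.09 (Ifnar1), and Irf3, which is activated by phosphorylation, was at 0.42 ± 0.23. Of the interferons themselves, Ifnb1 was at 0.02 and Ifng at -0.25.

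**Figure D2:**
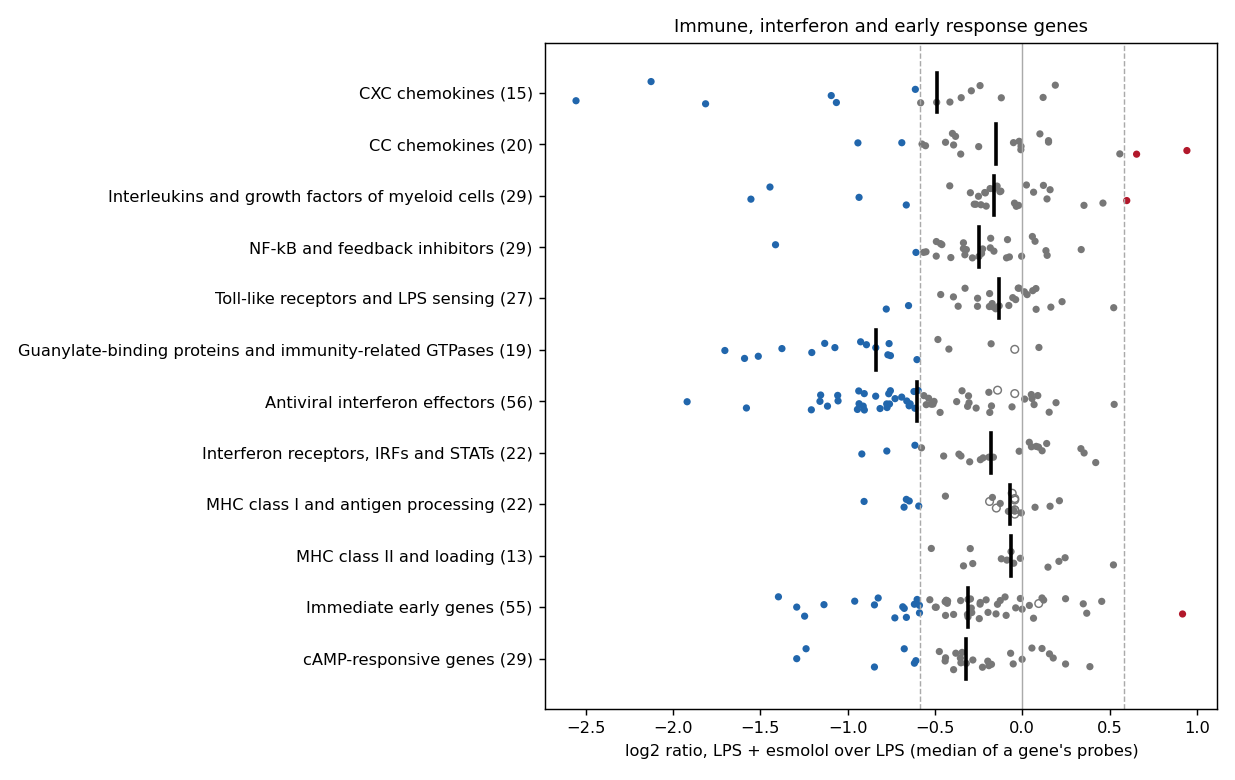
Log2 ratios of LPS + esmolol over LPS hearts for the measured members of 12 gene lists, with blue for genes lower and red for genes higher by 1.5-fold or more, open circles for genes with a probe on the recurring value, black bars for medians and dashed lines at 1.5-fold. The guanylate-binding and antiviral lists have the largest shares of lower genes (73.7% and 51.8%), with medians of -0.84 and -0.61. The class II list has 0 of 13 genes past the threshold, near the shares of all genes (2.06% higher, 2.26% lower).

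The start regions of these genes were searched for the core of the interferon-stimulated response element, the sequence read by the interferon-activated ISGF3 complex and by interferon regulatory factors. The letters searched were GAAANNGAAA on either strand, in RefSeq promoters of GRCm38.p6 that span 250 bases before to 50 bases after a start, with overlapping matches counted. Of 14144 measured genes with a promoter in that set, 3.85% held a match. The share was 16.1% of the 304 genes lower by 1.5-fold or more, 29.1% of the 55 lower by 2-fold or more, and 2.73% of the 293 higher by 1.5-fold or more. In the guanylate-binding list 9 of 10 genes with a promoter held one, and in the antiviral list 22 of 44. Taken from the side of the sequence, 9.01% of the 544 genes with a match were lower and 1.47% higher, against 1.88% and 2.10% of the 13600 genes without. Their median was nonetheless close to 0 (-0.04), so most genes with these letters did not carry a large ratio. Of the lower genes that stand in no interferon list, 31 of 267 held a match, or 11.6%. These include Cxcl10, which is induced by interferon, and Socs1 and Calhm6, so genes in no interferon list are not free of interferon targets.

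Stretches of 100 bases around the match are shown for 4 genes with low ratios and for Oas3, whose ratio was near 0 although it holds the same letters. They run 5′ to 3′ on the strand of the gene, and capitals mark the matches, which read as TTTCNNTTTC where the opposite strand holds them. On GRCm38.p6 they lie at chr5:92349040-92349139 (minus strand, Cxcl10), chr3:142620559-142620658 (plus strand, Gbp2), chr4:156200836-156200935 (minus strand, Isg15), chr16:10785562-10785661 (minus strand, Socs1) and chr5:120777680-120777779 (minus strand, Oas3).
Cxcl10: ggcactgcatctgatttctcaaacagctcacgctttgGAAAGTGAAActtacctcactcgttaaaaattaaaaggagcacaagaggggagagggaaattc
Gbp2: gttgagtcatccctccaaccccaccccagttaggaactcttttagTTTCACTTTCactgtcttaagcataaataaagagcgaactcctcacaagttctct
Isg15: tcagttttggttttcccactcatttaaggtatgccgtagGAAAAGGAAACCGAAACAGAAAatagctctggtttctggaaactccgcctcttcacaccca
Socs1: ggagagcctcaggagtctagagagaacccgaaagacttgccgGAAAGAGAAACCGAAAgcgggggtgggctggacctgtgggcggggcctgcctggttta
Oas3: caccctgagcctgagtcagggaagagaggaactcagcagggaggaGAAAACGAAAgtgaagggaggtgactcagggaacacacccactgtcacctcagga
In Isg15, 3 overlapping matches fill the bases from -78 to -57 before the start, and in Socs1, 2 fill those from -83 to -68. The single match of Cxcl10 begins at -213, that of Gbp2 at -59 and that of Oas3 at -75. Cxcl10 also holds 2 matches to the NF-kB consensus in its 300 bases. That consensus was found in 6.00% of all genes, 10.5% of the lower genes, 18.2% of those lower by 2-fold or more and 3.41% of the higher genes. The gamma-activated site, TTCNNNGAA, was in 8.82%, 15.1%, 20.0% and 7.51% of the same sets. The E-box CACGTG, bound by clock and Myc factors, was in 10.1%, 7.57%, 10.9% and 10.2% of all genes, the lower genes, those lower by 2-fold or more and the higher genes. The AP-1 consensus was in 5.15%, 8.22%, 12.7% and 6.48% of the same sets. The set lower by 2-fold or more holds 55 genes, so its shares rest on 6 to 16 genes with a match. A match is a run of letters and says nothing of binding in these hearts.

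Chemokines past 1.5-fold and lower were mainly in the CXC family, where 6 of 15 genes were lower, 0 were higher, and the median was -0.49. Among all genes 2.26% were lower by as much. All 6 rest on 1 probe each. The 3 CXC genes with more than 1 probe had a median of -0.12, with 0 lower. The 5 such CC genes had a median of -0.38, with 1 lower. The greater share of lower CXC genes was therefore not seen where probes could be compared. Sets of 3 and 5 genes are too few to compare the families. Cxcl10 and Cxcl9 led, and the third ligand of their receptor, Cxcl11, was at -1.09. The neutrophil chemokine Cxcl2 was at -1.06, while the related Cxcl1 was at -0.41 and Cxcl5 at -0.58. Ppbp (-1.81) and Pf4 (-0.61) are chemokines stored in platelets. The CC family was mixed, with 2 of 20 lower, 2 higher, and a median of -0.15. The eosinophil chemokine Ccl11 (-0.94) and the lymphoid chemokine Ccl19 (-0.69 ± 0.47, 2 probes) were lower, and Ccl6 (0.94) and Ccl12 (0.65) were higher. The monocyte chemokine Ccl2 was at -0.57, just short of the threshold. Of 22 chemokine receptors 1 was past 1.5-fold, the atypical receptor Ccrl2 (-1.24 ± 0.09, 2 probes).

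Cytokine genes divided in the same way between a few strong members and many near 0. Of 29 interleukins and myeloid growth factors, 4 were lower and 1 was higher, with a median of -0.16. Il6 was at -1.55, the granulocyte growth factor Csf3 at -1.44, the related Csf2 at -0.93 and the interleukin 1 receptor antagonist Il1rn at -0.66 ± 0.01 over 2 probes. Il23a was at 0.60. The cytokine genes Tnf (0.16), Il1b (0.12), Il1a (-0.04) and Il10 (-0.27) were all within 1.5-fold. In the prostaglandin and eicosanoid list 2 of 26 genes were lower and 0 higher, with a median of -0.04. They were Ptgs2, the inducible prostaglandin synthase, at -1.24 ± 0.09 over 2 probes, and Hpgd, which degrades prostaglandins, at -0.82 ± 0.09 over 2 probes. In the nitric oxide list 2 of 21 were lower and 1 higher, with a median of -0.06. Nos2, the inducible synthase, was at -0.85, the arginine transporter Slc7a2 at -0.60, and the dynein light chain Dynll1 at 0.62.

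The signalling machinery of LPS itself showed small ratios. In the Toll-like receptor list 2 of 27 genes were lower and 0 higher, with a median of -0.13, and Tlr4, the LPS receptor, was at 0.01 ± 0.18 over 2 probes. Its co-receptors Cd14 and Ly96 were at -0.13 and -0.39. The lower genes were Tlr3 (-0.78 on each of 2 probes), a sensor of double-stranded RNA, and Irak3 (-0.65 ± 0.08, 3 probes), a brake on receptor signalling. In the NF-kB list 24 of 29 genes were below 0 and the median was -0.25, yet only 2 were past 1.5-fold. Both are brakes on the pathway, the deubiquitinase gene Tnfaip3 (-1.41) and the RNase gene Zc3h12a (-0.61). Nfkbia, which encodes the classical inhibitor, was at -0.41. Cd274, the ligand of the checkpoint receptor PD-1, was at -1.65 and was the 1 lower gene of 20 checkpoint and costimulator genes, where Btla, an inhibitory receptor of lymphocytes (0.82), was the 1 higher.

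In antigen presentation, 5 of 22 class I genes were lower and 0 higher. They were the peptide transporter subunit Tap2 (-0.66), the editors Tapbp (-0.59 ± 0.10) and Tapbpl (-0.68), the trimming peptidase Erap1 (-0.65 ± 0.02) and the nonclassical H2-M3 (-0.91 ± 0.39), the ratios with an error resting on 2 probes. In the list 8 genes had a probe on the recurring value described further on, and 4 of them had all their probes on it. The heavy chain genes H2-K1 and H2-D1 and the light chain gene B2m are among the 8. Probes on that value were not read as ratios. Psmb8, an immunoproteasome subunit, was at -1.01 ± 0.17 over 2 probes, while Psmb9 was at -0.28 and 0 of 31 constitutive proteasome genes passed 1.5-fold. Class II genes had 0 of 13 past the threshold, with H2-Aa lowest at -0.52. In a list of 13 genes, that is near the 2.06% higher and 2.26% lower among all genes. Nlrc5, a transactivator of class I genes, was at -1.20, and its class II counterpart Ciita at 0.15.

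Acute phase genes had 5 of 26 lower and 2 higher. The antiprotease Serpina3f (-1.30 ± 0.15, 2 probes), haptoglobin (Hp, -0.93), Orm1 (-0.86), the fibrinogen chain Fga (-0.65) and the metalloreductase Steap4 (-0.64) were lower. Ahsg (0.75) and Itih4 (0.66), both plasma proteins made mainly by liver, were higher. Among complement genes the receptor C5ar2 (-0.98) and the protease C1ra (-0.62) were lower and the C1q chains C1qa (0.75) and C1qc (0.65) higher, with C1qb at 0.43.

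Early response genes lay mostly below 0. Of 55 immediate early genes, 15 were lower (27.3%), 1 was higher (1.82%), and the median was -0.31. Among all genes 2.26% were lower and 2.06% higher by as much. Maff (-1.40) and Fosl1 (-0.96) encode basic leucine zipper factors, Atf3 (-1.29) a stress-induced repressor, and Csrnp1 (-1.14 ± 0.34, 3 probes) a nuclear protein. Of the most familiar members, Fos at -0.44 ± 0.57 (probes at -0.04 and -0.84), Egr1 at -0.30 and Nr4a1 at -0.44 were within 1.5-fold. Jun was just past it at -0.59. Klf10, a TGF-beta-inducible factor, was the 1 higher gene at 0.92. A list of cyclic AMP-responsive genes, 10 of which are also immediate early genes, had 6 of 29 lower, 0 higher and a median of -0.32. Gem (-0.85), a small GTPase that restrains calcium channels, and Btg2 (-0.68 ± 0.26, 3 probes) were among them. Other targets of the same pathway were near 0, such as Fosb (-0.0007), Nr4a2 (0.11) and Ppargc1a (0.18).

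The pathway that esmolol blocks had few large ratios in its own transcripts. Of 38 measured genes from adrenergic receptors to protein kinase A, 1 was higher, the cardiac adenylyl cyclase Adcy6 (0.60), and 1 was lower, the kinase anchor Akap12 (-0.90). The list median was -0.04. The Gs subunit gene Gnas had a probe on the recurring value. Among 21 phosphodiesterases, Pde2a, which is stimulated by cyclic GMP, was alone past 1.5-fold at 0.92 ± 0.03 (probes at 0.89 and 0.94). Of 21 RGS proteins, which shorten G protein signals, 0 were past it, with Rgs2 at -0.35.

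Genes of the capillary endothelium held more higher genes than any other of the 76 lists, with 13 of 46 measured markers higher and 0 lower by 1.5-fold or more and a median of 0.24. Among all genes 2.06% were higher by as much. This list, like the others, was chosen with earlier results of these data known, so its rank is a description. Cd300lg, a receptor of the capillary wall, was at 1.53 ± 0.59 (probes at 1.12 and 1.95). Sox18, a transcription factor of vessel development, was at 1.44, and Adgrl4, an adhesion receptor of angiogenic endothelium, at 1.42. Gpihbp1, which anchors lipoprotein lipase to the capillary wall, was at 0.87, the tyrosine phosphatase Ptprb, a partner of the receptor Tek, at 0.85 ± 0.22 over 2 probes, and the scaffold Slc9a3r2 at 0.89. Ly6c1 (0.71), Myct1 (0.74), Timp4 (0.80) and Slco2b1 (0.69) were also higher, each on 1 probe. For 3 of the leading genes the probes did not give the same size. Aqp7, a glycerol channel, read 0.76 and 2.28, Btnl9 read 0.23 and 2.48, and the retinol-binding protein gene Rbp7 read -0.05 and 2.15.

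The most general endothelial genes were not higher with them. The junction genes Cdh5 (-0.26 ± 0.03, 2 probes) and Cldn5 (-0.58) were below 0, as were the receptor Tie1 (-0.29) and Emcn (-0.19), while Pecam1 was at 0.29 ± 0.17 over 2 probes and Kdr, the main VEGF receptor, at 0.46 ± 0.20 over 2 probes. Of the 19 markers with more than 1 probe, 9 had all probes above 0, 4 all below and 6 on both sides. In bulk tissue, a change in the number of cells of a type and a change in RNA per cell cannot be told apart. The Notch receptors Notch3 (0.76), which marks mural cells, and Notch4 (0.73), which is endothelial, were higher, as was their target Hey1 (0.63). These were 3 of 34 VEGF, angiopoietin and Notch genes higher, with 0 lower and a median of 0.13. Vegfa was at 0.003 and Angpt2 at -0.29. Tek could not be read, with probes at 0.84 and -0.77.

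Adhesion molecules that inflammation induces on endothelium were on the other side. The selectins Sele (-0.88) and Selp (-0.85 ± 0.13, 2 probes) and the integrin ligand Icam1 (-0.82 ± 0.36, probes at -0.56 and -1.07) were lower, and Vcam1 was at -0.50 ± 0.24 over 3 probes. Icam2, which resting endothelium carries constitutively, was higher at 0.87. These were 3 lower and 1 higher of 29 adhesion genes. Among vasoactive genes, Edn1, the endothelial constrictor peptide, was at -0.64 and the vasopressin receptor Avpr1a at -0.79, while Edn2 (0.74), the bradykinin receptor Bdkrb1 (0.66) and the angiotensin receptor Agtr1b (0.60) were higher. Nos3, the endothelial nitric oxide synthase, was at 0.13. Of 28 coagulation genes 1 was past 1.5-fold, F13a1 (0.64), a share of 3.57% higher that is near the 2.06% of all genes. Tissue factor (F3) was at -0.46.

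**Figure D3:**
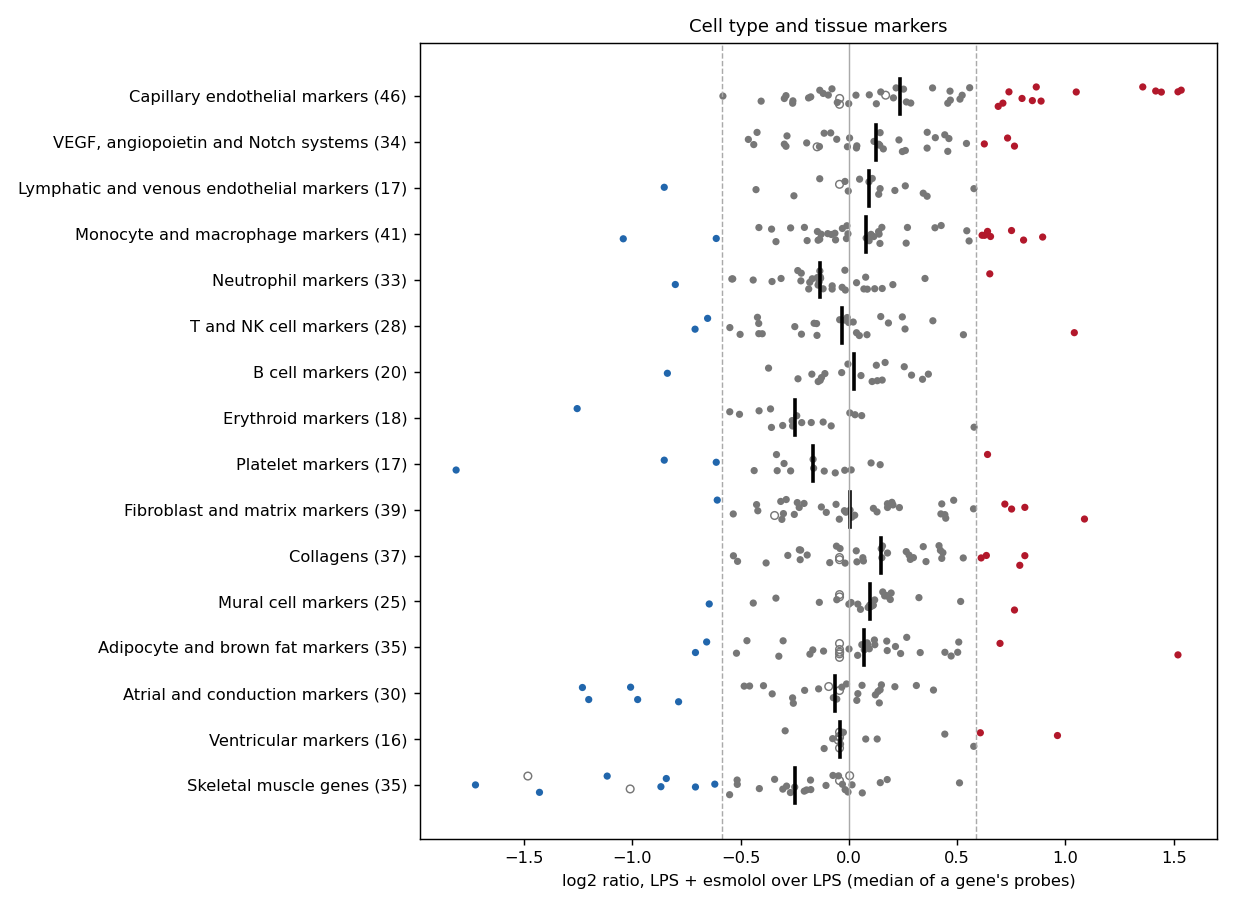
Log2 ratios of LPS + esmolol over LPS hearts for the measured members of 16 lists of cell type and tissue markers, drawn with blue for lower and red for higher by 1.5-fold or more, open circles for genes with a probe on the recurring value and black bars for medians. Capillary endothelial markers reach the furthest to the right, up to 1.53, and platelet and skeletal muscle genes the furthest to the left, down to -1.81 and -1.72.

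Markers of macrophages showed both directions, with 7 of 41 higher (17.1%), 2 lower (4.88%) and a median of 0.08. Among all genes 2.06% were higher and 2.26% lower by as much. Of the 7 higher genes, 6 rest on 1 probe each. The 16 markers with more than 1 probe had a median of -0.11, with 1 higher and 0 lower. Resident macrophage genes were among the higher, with the haemoglobin scavenger receptor Cd163 at 0.89, the mannose receptor Mrc1 at 0.81 and the complement chains C1qa and C1qc named above. Lyz2, the myeloid lysozyme, was at 0.62 ± 0.17 over 2 probes. Plac8 (-1.04), a gene of inflammatory myeloid cells, and Pf4 were lower, and the receptors Csf1r (0.10) and Cx3cr1 (-0.36) were within the threshold. Neutrophil markers had 24 of 33 genes below 0 but 1 past 1.5-fold in each direction, Hdc (-0.80) and Retnlg (0.65). The alarmins S100a8 (0.20) and S100a9 (0.04) were near 0. Among T and NK cell markers, granzyme B (Gzmb, -0.71) and Cd27 (-0.65) were lower and the NK receptor Klra4 (1.04) higher, of 28. In 20 B cell markers 1 was lower, the immunoglobulin heavy chain Ighm, with 4 probes from -0.24 to -1.67.

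Blood genes lay mostly below 0. Of 18 erythroid genes 14 were below 0, with a median of -0.25, but 1 was past 1.5-fold, Alas2, the erythroid haem synthesis enzyme (-1.254). Globin genes were at -0.26 for Hba-a1 and -0.26 ± 1.08 for Hbb-bt, 1 of whose 4 probes read -2.34 and the rest between -0.06 and -0.29. Platelet genes had 3 of 17 lower and 1 higher. The part of blood content in the ratios of Ppbp, Pf4 and Selp was not tested.

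Matrix genes past 1.5-fold were mostly higher. Of 37 collagens 4 were higher (10.8%, against 2.06% of all genes) and 0 lower, with a median of 0.15. Col3a1, the fibrillar type III chain, was at 0.81 ± 0.10 over 2 probes, Col5a2 at 0.61, and Col6a3 at 0.79 ± 0.49 over 3 probes that ranged from 0.19 to 1.15. Col1a1 (0.43) and Col1a2 (0.18) were within 1.5-fold. In a fibroblast list of 39 genes, 3 of which are also in the collagen list, 4 were higher, led by the lubricin gene Prg4 (1.09), Fbln2 (0.75) and Sparc (0.72 ± 0.02, 2 probes), and 1 was lower, the protease Htra1 (-0.61). Postn and Fn1, which activated fibroblasts make, were at -0.29 and -0.31, and Lox, the collagen cross-linker, at -0.43. Of 43 matrix proteases and inhibitors, the macrophage elastase Mmp12 (-0.92) was lower and Timp4 and Mmp19 (0.59) were higher. In the TGF-beta and BMP list 1 of 59 genes was past 1.5-fold, the atrial Bmp10.

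Skeletal muscle genes were lower in 9 of 35 cases and higher in 0, with a median of -0.25, against 2.26% and 2.06% of all genes. The list is not free of heart genes. It shares 4 members with the sarcomere list, the cardiac actin gene Actc1 among them, and 4 members had a probe on the recurring value. Mylpf (-1.72), Tnni2 (-1.43) and Actn3 (-1.12) encode parts of the fast fibre sarcomere. Myoz1 (-0.84 ± 0.04) and Myl1 (-0.62 ± 0.02) were lower on both of their probes. Atp2a1, the calcium pump of fast fibres, had the lowest probe of the whole column at -2.92, while its other probe sat on the recurring value, and Myh4 likewise read -1.98 and the recurring value. Myod1, a factor of muscle precursors, was at 0.51. How much skeletal muscle the samples held was not tested.

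Atrial genes were lower in 5 of 30 cases (16.7%) and higher in 0, against 2.26% and 2.06% of all genes. The atrial myosin light chains Myl7 (-1.23) and Myl4 (-0.98 ± 0.09, 2 probes), Sln (-1.20), the atrial regulator of the calcium pump, Dkk3 (-1.01) and the growth factor Bmp10 (-0.79) were lower. In the 2 other contrasts the same 5 genes were above 0, with medians of 0.68 in non-septic hearts and, with the sign turned as its title reads, 2.25 in CLP hearts. Nppa, the atrial natriuretic peptide, had 1 of 2 probes on the recurring value and the other at -0.14. Conduction genes such as Hcn4 (-0.07) and Shox2 (-0.39) were within 1.5-fold. Different shares of atrium in the samples were not tested as a source.

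In working muscle, 21 of 47 sarcomere and Z-disc genes had a probe on the recurring value and 12 had no other probe. In the list 5 genes were lower, the atrial Myl7 and Myl4 named above among them, and 1 was higher. The higher gene was Tnnt2, cardiac troponin T, whose median of 0.62 includes a probe on the recurring value. Myh7, the slow myosin heavy chain, was just short of the threshold at 0.58 ± 0.08 over 2 probes. Xirp2, an actin-binding protein of the intercalated disc, was lower on all 3 probes (-0.98 ± 0.09), as was the stretch-responsive Ankrd2 (-0.67). Flnc read -0.69 and -0.70 on 2 probes with the third on the recurring value. Tnnt2 read 1.28 on its probe that was not on that value. Gja1, which encodes connexin 43, the main gap junction protein of the ventricle, was higher at 0.96. Cdh2, the cadherin of the intercalated disc, was at 0.71 ± 0.50 with 4 probes from 0.34 to 1.39. These were the 2 genes past 1.5-fold of 27 connexin and disc genes. The channel genes Kcnj11 (0.79), the pore of the ATP-sensitive potassium channel, and Kcna4 (0.64) were the 2 past it of 45, with 0 lower. In calcium handling Ryr2 (0.11), Slc8a1 (0.02) and Casq2 (-0.10) were near 0, and Sln alone of 43 genes was past 1.5-fold. The hypertrophy genes Abra (-0.86), which activates actin-dependent transcription, and Hbegf (-0.74) were lower.

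Energy metabolism was close to 0 in this contrast, within what could be read. Fatty acid genes had 1 of 62 past 1.5-fold, Gpihbp1, and Cpt1b, the muscle carnitine transferase, was at 0.38. The tricarboxylic acid cycle had 0 of 27. In oxidative phosphorylation 42 of 77 genes had a probe on the recurring value, and 2 of 77 genes were lower, Atp5c1 (-0.84) and Cox7c (-0.76). Glycolysis showed a small set of lower genes, 3 of 50. Pfkfb3, which makes the activator of phosphofructokinase, read -0.95, -1.03 and -1.05 on 3 probes, the hexokinase gene Hk2 was at -0.64, and the glycogen branching enzyme Gbe1 at -0.83. Pfkfb3 and Hk2 are also targets of hypoxia-inducible factors, and in that list 4 of 38 genes were lower and 0 higher. The other members past the threshold were Stc1 (-0.95 ± 0.12, 3 probes) and the oxygen sensor Egln3 (-0.66), while Vegfa, Car9 (0.30) and Ndrg1 (-0.02) were not. The mitochondrial DNA polymerase Polg (0.83) and the transcription factor Tfb1m (0.74) were higher.

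The stress lists together, which include the immediate early and hypoxia genes above, had 25 of 440 genes lower (5.68%) and 5 higher (1.14%), and 15 of the lower ones were immediate early genes. Among all genes the shares were 2.26% lower and 2.06% higher. Heat shock genes had 0 of 50 past 1.5-fold, and the cell cycle list had 0 of 54. Of 33 p53 targets 2 were lower, the immediate early genes Btg2 and Plk2 (-0.60). In the unfolded protein and integrated stress list, Atf4, the central factor of the integrated stress response, was at -0.74 and Slc7a11, the cystine transporter, at -0.68 ± 0.35 over 4 probes, with the lipoprotein receptor Vldlr at 0.65 ± 0.18. Chaperones of the endoplasmic reticulum stayed near 0, with Hspa5 at 0.07. Catalase (Cat, 0.68) was higher and Gpx2 (-0.91), Glrx (-0.68) and Gsta3 (-0.65 ± 0.04, 2 probes) were lower, of 53 antioxidant genes. The necroptosis executor Mlkl was at -0.70, the 1 of 34 cell death genes past 1.5-fold.

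Hormone-linked genes had isolated large ratios. Of 41 glucocorticoid-responsive genes, Hsd11b1 was higher and Rasd1, a dexamethasone-induced Ras protein, lower (-1.27). That is 2.44% in each direction, near the 2.06% and 2.26% of all genes. Fkbp5, a chaperone induced by glucocorticoid, was at 0.46 ± 0.05 over 3 probes and Tsc22d3 at 0.17. Of 27 clock genes the outputs Dbp (0.83) and Per3 (0.64) were higher and Arntl, the core activator, lower (-0.96), with Nr1d1 at -0.29 and Per2 at 0.23. Among atrophy genes Fbxo32, the ubiquitin ligase atrogin-1, was higher on both probes (0.73 ± 0.11) together with Klhl38, while Trim63, the companion ligase, was at -0.01. Of 26 cholesterol and sterol genes 1 was lower, the interferon-inducible hydroxylase gene Ch25h (-0.81), and 2 were higher, the cholesterol exporter Abcg1 (0.60) and the lipid carrier Apod (0.67). The transporter Slc15a3, a carrier of bacterial peptides in immune cells, was at -1.40.

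Gene families taken by name were counted as well. Of 8 Schlafen genes, which are interferon-inducible, 3 were lower, Slfn9 (-1.05), Slfn8 (-0.90) and Slfn2 (-0.65), and all 8 were below 0. Of 52 tripartite motif genes 7 were lower, among them Trim21 (-1.16), Trim30a (-0.94), Trim30d (-0.89), Trim5 (-0.83) and Trim12a (-0.82), and 1 was higher, Trim68 (0.68). Trim5, Trim12a, Trim30a and Trim30d have near copies in the mouse genome, so their probes may share targets. Of 31 immunoglobulin genes 4 were lower, led by Ighv1-19 (-1.79), and 1 was higher. Mitochondrial ribosomal proteins had 0 of 78 past 1.5-fold. Families best known from sensory tissue also passed the threshold. Of 660 olfactory receptors 4.24% were higher and 2.12% lower, and of 82 vomeronasal receptors 2.44% were higher and 6.10% lower. Of these shares all but the 2.12% are above those of all genes. Beside genes with 1 probe, of which 2.93% were higher and 2.99% lower, the 2.44% is below as well. Olfr691 (-1.79) had a lower value than Gbp2 or Cd274. A ratio of this size at a single probe therefore also occurred among genes of these families.

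**Figure D4:**
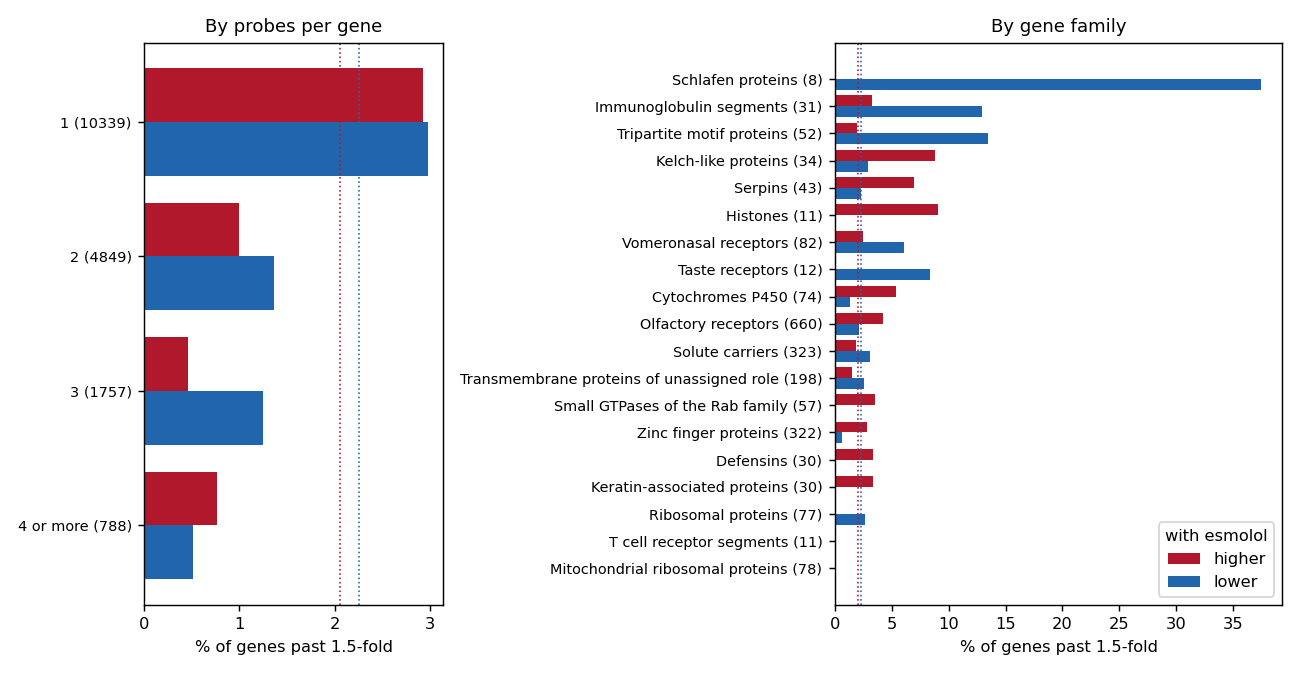
Percent of genes higher (red) and lower (blue) by 1.5-fold or more with esmolol in LPS hearts, by number of probes per gene (left) and by gene family (right), with gene numbers in brackets and dotted lines at the shares of all genes (2.06% higher, 2.26% lower). Single-probe genes pass the threshold most often of the 4 probe classes, and the families with the highest lower shares are Schlafen (37.5%), tripartite motif (13.5%) and immunoglobulin genes (12.9%).

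One exact value, -0.043, recurred at 526 probes, or 1.51% of those measured, while the next most frequent value was shared by 15. Of these probes 396 named 1 gene, and 344 genes had at least 1 probe on it, 185 of them all their probes. They include genes known for high expression in heart, such as Myh6, Myl2, Tnnc1 and Cox4i1 with every probe on the value, and both probes of the natriuretic peptide gene Nppb. Genes of other kinds had such probes too. They were 28 of 77 ribosomal protein genes, 21 of 322 zinc finger genes and 1 of 660 olfactory receptors, Olfr571. At 282 of the 526 probes, the non-septic and CLP columns also held their own recurring value. These values were therefore not read as ratios near 0. For 159 genes other probes existed, 257 in all, and 10 of those were lower and 9 higher by 1.5-fold or more. They include Atp2a2, the cardiac calcium pump, with 1 probe at 1.203, and Ttn, the giant sarcomere protein titin, with 1 at 0.66.

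The genes past 1.5-fold in LPS hearts were set beside their values in the other contrasts. Among the 401 lower genes, 385 had a value in non-septic hearts, with a median of -0.05 and 61.6% below 0. Among the 365 higher genes, 359 had one, with a median of 0.03 and 60.7% above 0. Among all genes of the LPS contrast with a value there, 49.2% were below 0 and 50.7% above. The CLP title has its groups in the opposite order, with esmolol second, against the design text, so that direction is not settled. With the sign turned as the title reads, the lower genes had a median of 0.04 (59.2% of 382 above 0) and the higher genes a median of -0.06 (59.9% of 354 below 0). Among all genes with a value there, 47.9% were above 0 and 52.0% below. If the title is not followed, these signs reverse.

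The interferon and capillary genes were also followed into the other contrasts. Of the 29 antiviral genes lower in LPS hearts, 24 were below 0 in non-septic hearts, with a median of -0.14, and 4 were past 1.5-fold. All 14 lower GTPase genes were below 0 there, with a median of -0.19. Cxcl10 was at -2.56 in LPS hearts and at -2.78 in non-septic hearts, but Socs1 was at -1.62 and -0.06 and Il6 at -1.55 and -0.25, in the same order. Of the 13 capillary genes higher in LPS hearts, 7 were above 0 in non-septic hearts, with a median of 0.11. In CLP hearts, with the sign turned, all 13 were below 0, with a median of -0.40, and 26 of 28 antiviral genes with a value were above 0, with a median of 0.27. No difference between contrasts was tested.

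**Figure D5:**
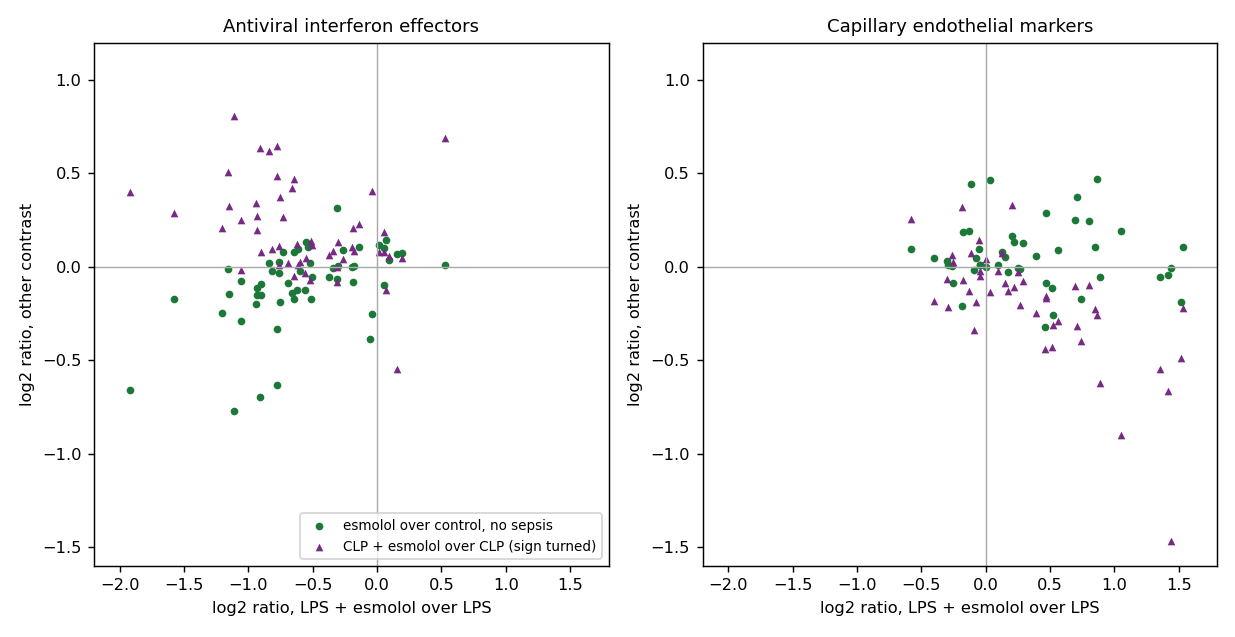
Antiviral interferon effectors (left) and capillary endothelial markers (right), each gene at its log2 ratio in LPS hearts (x axis) and in non-septic hearts (green circles) or CLP hearts with the sign turned as titled (purple triangles, y axis). The antiviral genes furthest left lie mostly below 0 in green and above 0 in purple, and the capillary genes furthest right lie below 0 in purple.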

How the data were processed

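The authors deposited 3 contrasts as merged log ratios, a single number at each probe, read here as log2 values. Per the labels, each value merges 4 replicates with dye swaps of RNeasy-purified total RNA labelled as cDNA by an indirect method. Scanner, background correction, normalization, centring and log base were stated by no label or header used here, and without intensities no detection limit can be given. The only measure of precision is the SD between probes. Of 41174 probes, 32664 named 1 gene in the platform annotation. The 45 that named several genes and the 8465 with no name in that annotation entered no gene value. The LPS contrast held 34933 values, 28780 of them at named probes, and 15.2% of probes were blank. Symbols follow RefSeq of GRCm38.p6 (32524 probes matched by gene ID).

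Probes were collapsed by the median with Python 3.11.15, pandas 2.3.3 and numpy 2.4.6, figures were drawn with matplotlib 3.10.9, counts were made at 1.5-fold, and the collapsing was tested on simulated data. The 76 gene lists, 19 families and the members were chosen with earlier results of these data known. Named genes are the 30 highest and 30 lowest among genes whose symbol is no predicted or clone name, with all probes on the same side of 0 and none on the recurring value, the measured list members, the members of families past 1.5-fold with each family's highest and lowest, and the genes with the largest SD between probes. Genes on the recurring value were kept in the counts. Alternatives were other thresholds, collapsing rules, centring, log base and leaving out the recurring value. No test was made, since each contrast is a single merged value.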

Additional observations from a re-analysis of the deposited data

How the results depend on the processing

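The counts of genes past 1.5-fold stayed within 1.5 times of 365 higher and 401 lower under the mean of the probes, the probe nearest 0, centring on the gene median and leaving out probes on the recurring value. Centring subtracted a gene median of 0.0001, so it could hardly have moved the counts. At a looser threshold of 0.322 on the log2 scale 1925 genes were higher and 1843 lower, and at 2-fold 32 and 75. Read as natural logarithms, the values gave 1171 higher and 1135 lower. Limited to the 3953 genes with more than 1 probe, all on the same side of 0, the counts were 58 and 88. The 76 list medians moved by at most 0.20 under the 4 alternatives run for them, and 14 medians of 0.08 or less in size changed side of 0. All shifts were below the SD between probes (0.24). That SD is larger than most of the list medians in size, so a shift below it does not show that a median held. Of 245 named genes past 1.5-fold, 2 were not past it with the mean of the probes and 31 were not with the probe nearest 0. With the probe nearest 0, Irf1 reversed to 0.34 and Rbp7 to -0.0468, each having a probe on the other side of 0. Tnnt2 then takes the recurring value of -0.043, which is not read as a ratio. No paired analysis was possible because each contrast is a single merged value with no replicate columns. Signal over background could not be judged without intensities, and most extremes rest on 1 probe.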

Other observations

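Probes that the annotation used here does not name also carried ratios. Of 6120 unnamed probes with a value in the LPS contrast, 203 were higher and 143 lower by 1.5-fold or more, together 5.65%, against 5.18% of single probes that name 1 gene. Their values ran from -1.75 to 1.37. Across the 4849 genes with exactly 2 probes, the probes correlated with Pearson r = 0.32, a description across genes that share the same hybridizations.

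Of the 49 multi-probe genes with every probe lower by 1.5-fold or more, 16 stand in the interferon lists and 9 in the inflammation lists. Of the 18 with every probe higher, 0 stand in either, and 6 stand in the vascular or cell marker lists. Those lists were chosen with earlier results of these data known. Members outside all lists include Asb4 (-1.10 ± 0.11), Rnf115 (-1.20 ± 0.12) and Gna13 (-0.99 ± 0.21), which encodes a G protein subunit, on the lower side, and Plekha6 (0.88 ± 0.26) and Mgll (0.76 ± 0.07), the monoglyceride lipase, on the higher side. These 5 were chosen after their values were seen.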
